A study of Homo sapiens with 10 samples.

Results

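The lysosome and autophagy genes described here are 35 genes listed by name for their place in the degradative compartment of the cell. They comprise 7 lysosomal proteases, 6 glycosidases, 5 lipid and sphingolipid hydrolases or their cofactors, and 7 membrane or sterol and ion transport proteins. The others are 5 subunits of the proton pump, and 5 genes of autophagy together with its regulator TFEB. Each gene was read from its brightest probe set, a group of probes on the array that carries the name of that gene alone. Such a probe set was used for 34 of the 35 genes, out of 19775 genes with one in the series. All 34 passed the filter on dim probe sets, a mean intensity of at least 19.8 on the array's linear scale, which left 12975 genes to be tested. GLB1, which encodes a lysosomal galactosidase, was not analysed here, because its probe set also names a further gene.

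The lysosome is an acidic organelle in which hydrolases break down proteins, sugars and lipids that arrive by endocytosis or, wrapped in autophagosomes, from the cell's own cytoplasm. The transcription factor TFEB raises the expression of many of these genes when lysosomes are stressed or nutrients are short. Tamoxifen, best known as a ligand of estrogen receptors, is also a cationic amphiphilic drug. Such drugs collect inside lysosomes, disturb their lipid breakdown and, in many cell types, lead to phospholipid storage.

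TFEB and its relatives bind the CLEAR element, a palindrome built around the E-box CACGTG. The promoter windows of RefSeq (GRCh38.p14, from 250 bases before to 50 bases after each transcript start) held an entry for 26 of the 35 genes. The 9 without an entry were ASAH1, ATP6V0E1, ATP6V1A, ATP6V1B2, ATP6V1H, CTSB, HEXA, LAMP2 and PSAP. The stretches below are shown because TFEB is known to act on lysosomal genes through this element, and each is 30 bases, 5′ to 3′ on the strand of the gene. Capitals mark TCACGTGA, with a further G before and C after it where the palindrome extends that far. All 3 motifs read the same on either strand, and both longer ones contain CACGTG.
ATP6V0D1: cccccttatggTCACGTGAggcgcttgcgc
CTSA: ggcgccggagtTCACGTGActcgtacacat
GAA, upstream: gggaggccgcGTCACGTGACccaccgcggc
GAA, downstream: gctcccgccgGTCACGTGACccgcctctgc
LAMP1, upstream: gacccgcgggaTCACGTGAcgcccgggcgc
LAMP1, downstream: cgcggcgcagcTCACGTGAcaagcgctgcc
MCOLN1, upstream: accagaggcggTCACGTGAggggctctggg
MCOLN1, downstream: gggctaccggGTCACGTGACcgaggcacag

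The ATP6V0D1 stretch lies on the minus strand at chr16:67481199-67481228, and its motif begins 60 bases before the transcript start. The CTSA stretch lies on the plus strand at chr20:45891298-45891327 with the motif 26 bases before the start. In GAA, on the plus strand, the stretches at chr17:80101493-80101522 and chr17:80101538-80101567 place the motif 78 and 33 bases before the start. In LAMP1, on the plus strand, the stretches at chr13:113297199-113297228 and chr13:113297226-113297255 place it 29 and 2 bases before the start. In MCOLN1, on the plus strand, the stretches at chr19:7522571-7522600 and chr19:7522598-7522627 place it 42 and 16 bases before the start.

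CACGTG occurred in the windows of 7 of the 26 genes (26.9%), against 8.775% of the 27305 genes with a window. TCACGTGA occurred in 5 of the 26 (19.2%), against 1.176% of all genes. The longer palindrome, with the G before and the C after, occurred in 2 of the 26 (7.69%), GAA and MCOLN1, against 0.421% of all genes. CD63 and NEU1 held the E-box but not the longer motifs. These are matches of letters in a fixed window and not measured binding. TFEB is known to act on lysosomal genes through this element, so the shares describe a chosen list and test nothing. The 26 genes have 40 windows, and 5 of these held TCACGTGA, against 0.98% of the 35116 windows of all genes.

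Expression was measured in 2 human non-small cell lung cancer lines, A549, an adenocarcinoma line, and HTB-182, a squamous cell line that the series title calls H520. Per the labels, both lines were held for 4 h in 10% serum stripped with charcoal and then for 3 h with 1 of 5 treatments. These were the ethanol vehicle at 0.1%, 1 µM 17β-estradiol, 1 µM estradiol with 10 µM tamoxifen, 1 µM estradiol-BSA, and 1 µM estradiol-BSA with 10 µM tamoxifen. Estradiol-BSA is estradiol coupled to albumin, used in the study to address receptors at the cell surface, and tamoxifen served as the receptor antagonist. Each of the 10 combinations is 1 array, and no combination has a replicate culture. Tamoxifen was therefore always given on top of an estrogen, and no source description gives tamoxifen alone or albumin alone. For the 2 arrays with estradiol and tamoxifen, the title gives tamoxifen only, and the source description, which gives both agents, was followed. The A549 source descriptions carry a mixed name of the lines, and the cell line entry, A549, was followed.

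The arrays were similar in overall signal, with trimmed means between 105.86 and 115.68. The A549 vehicle array stood apart, since 263 tested genes differed there by at least 2-fold from the rest of that line, 249 of them lower, against 23 to 35 genes on the other A549 arrays and 0 to 3 on the HTB-182 arrays. It enters no pairwise tamoxifen value, but it is part of the 10-array fit whose spread sets the errors, p-values and intervals over both lines. As the only A549 array without an estrogen, its array and its treatment cannot be told apart. SOX2 averaged 4152 in HTB-182 and 135 in A549, and KRT7 averaged 18.1 and 3411. In the same order, the adenocarcinoma markers CEACAM6, MUC1 and NAPSA averaged 99.1 and 397, 25.4 and 98.8, and 22.3 and 31.2. The squamous marker KRT5 averaged 22.1 and 26.1 and the adenocarcinoma marker SFTPB 32.2 and 27.8, so neither followed the type of the line. The squamous markers KRT14, DSG3 and PKP1 and the lung adenocarcinoma marker NKX2-1 averaged below the filter in both lines, and TP63 and KRT6A were not analysed here. Of 10 marker genes of blood, endothelium and fibroblasts with a probe set, 5 were above the filter in each line, and their summed levels ranged from 316 to 534 for the fibroblast genes in A549, where COL1A1 averaged 382, and from 63.4 to 75.6 in HTB-182. Of the blood genes, PTPRC averaged 7.29 in HTB-182 and 8.80 in A549, CD3E 21.5 and 24.3, and HBB 65.2 and 64.9. The part of these markers in the line comparison was not tested.

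**Figure D1:**
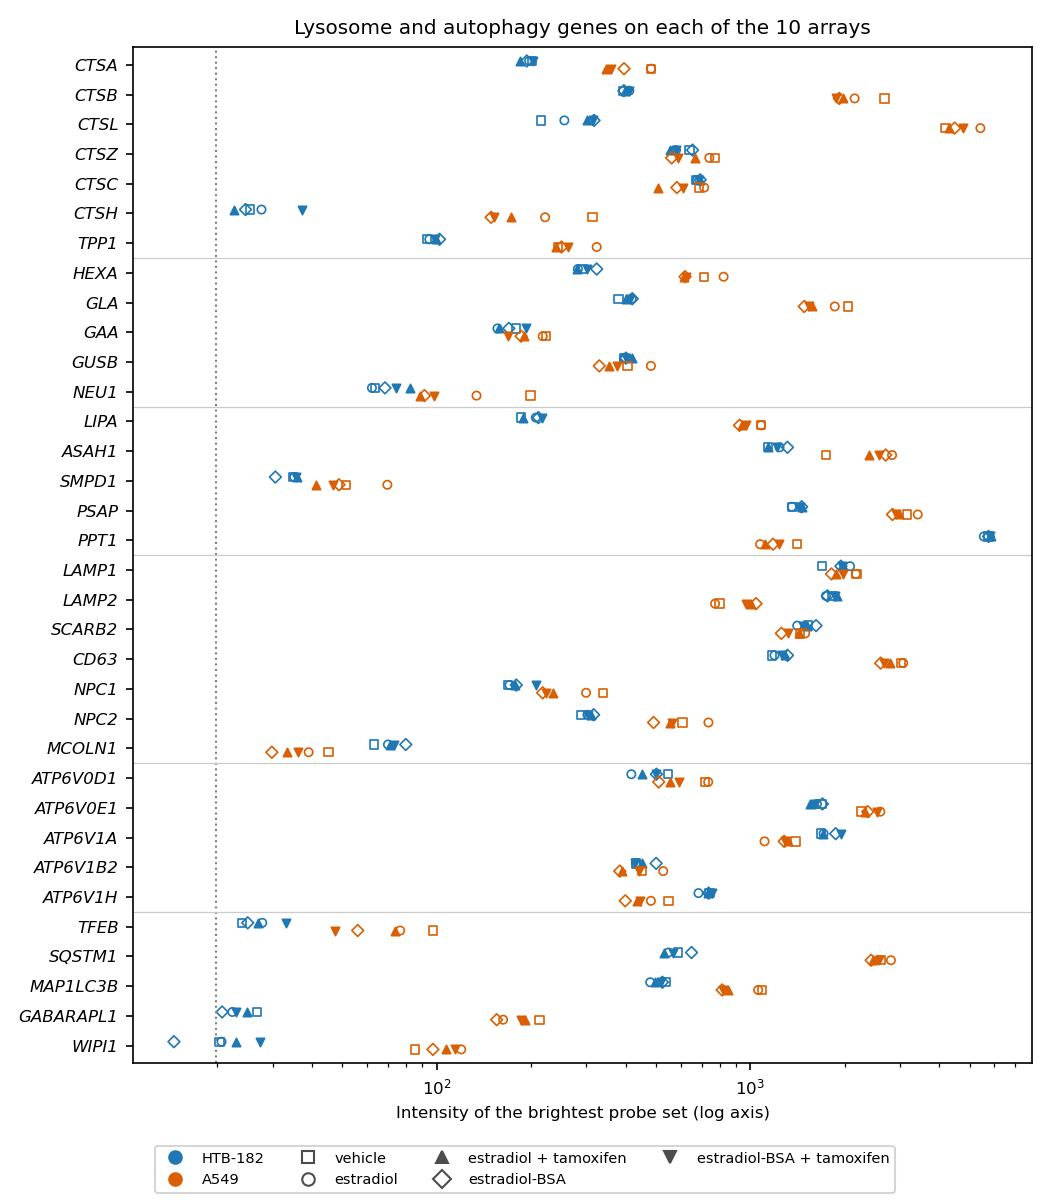
Intensity of each lysosome or autophagy gene (rows, grouped by role) on each of the 10 arrays, on a logarithmic axis. Blue symbols are HTB-182, orange symbols are A549, filled triangles are the arrays with tamoxifen, and the dotted line is the filter at 19.8. The symbols of a line lie close together for most genes, and the lines separate widely for CTSL, SQSTM1 and PPT1.

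The question of this comparison was whether tamoxifen shifted the lysosome and autophagy genes within 3 h. No gene of the 34 passed the test, in a fit where 0% of the 12975 genes did. Over the 4 pairs of arrays that differ only in tamoxifen, the median difference of the 34 genes was −0.04 on the log2(intensity + 16) scale, against 0.0002 over all genes tested. The single values ran from −0.15 for CTSA to 0.16 for WIPI1, with 7 genes above 0 and 27 below, against 49.9% of all genes tested below. Leaving out each array in turn gave medians from −0.10 to 0.03, above 0 without the HTB-182 estradiol-BSA array, the A549 estradiol array or the A549 array with estradiol-BSA and tamoxifen. Adding 16 before taking the logarithm damps the noise of dim probe sets and understates their change. The limma fit found no gene at an adjusted p under 0.05, while 151 genes, none of them among the 34, had an unadjusted p under 0.05. The smallest unadjusted p among the 34 was 0.165, and the adjusted p of each was 0.9998. With no replicate cultures, these p-values and the intervals below rest on how far single arrays depart from an additive fit of line and treatment. That spread may be technical, and it also holds any difference in response between the lines.

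The intervals bound what the arrays could have missed. The 95% interval of the tamoxifen difference lay within 1.5-fold of no difference for all 34 genes, against 97.1% of all genes tested. The highest upper bound was 1.35-fold higher and the lowest lower bound 1.36-fold lower. These bounds hold for 1 probe set per gene and for the mean over both lines and both estrogens after 3 h, on this damped scale. Within a line some intervals reached past 1.5-fold. In log2 units they ran from −0.64 to 0.005 for SMPD1 in A549 and from −0.03 to 0.62 for WIPI1 in HTB-182.

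GABARAPL1, a relative of LC3 that joins autophagosome membranes, was among the 2 genes that were higher with tamoxifen in 4 of 4 pairs. In HTB-182 its intensity was 26.8 with vehicle, 22.3 with estradiol and 24.9 with estradiol and tamoxifen, and it was 20.7 with estradiol-BSA and 22.8 with estradiol-BSA and tamoxifen. In A549 the values in the same order were 213, 163, 191, 155 and 185. Within each line the vehicle array was the highest of the 5, and each tamoxifen array lay between vehicle and its own estrogen. The mean difference was 0.16 ± 0.11 (SE), or between −0.08 and 0.39 at 95%, with a limma adjusted p of 0.9998. Its second probe set above the filter had a mean of 0.25 but was not higher in every pair. Its pair values on estradiol and on estradiol-BSA were 0.35 and −0.05 in HTB-182, and 0.27 and 0.42 in A549.

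PPT1, a thioesterase that removes fatty acids from proteins, was the other gene higher in 4 of 4 pairs. The intensities were 5741, 5550, 5857, 5746 and 5820 in HTB-182 and 1408, 1075, 1112, 1181 and 1237 in A549, in the order vehicle, estradiol, estradiol with tamoxifen, estradiol-BSA, estradiol-BSA with tamoxifen, which is kept below. The lines lay far apart, with the A549 vehicle array the highest of its line, and the mean tamoxifen difference was 0.05 ± 0.07 (SE). Being higher in 4 of 4 pairs was met by 7.36% of all genes tested, so 2 of 34 is near that share.

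ASAH1, the acid ceramidase, was the only gene of the 34 lower with tamoxifen in 4 of 4 pairs, a pattern met by 5.13% of all genes tested. Its values were 1136, 1239, 1143, 1313 and 1213 in HTB-182 and 1742, 2831, 2398, 2701 and 2563 in A549. In both lines the vehicle array was the lowest and both tamoxifen arrays lay below their own estrogen arrays. The mean difference was −0.14 ± 0.09 (SE), between −0.34 and 0.07 at 95%, with a limma adjusted p of 0.9998. Its further probe sets above the filter gave 0.02, −0.01 and −0.10.

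**Figure D2:**
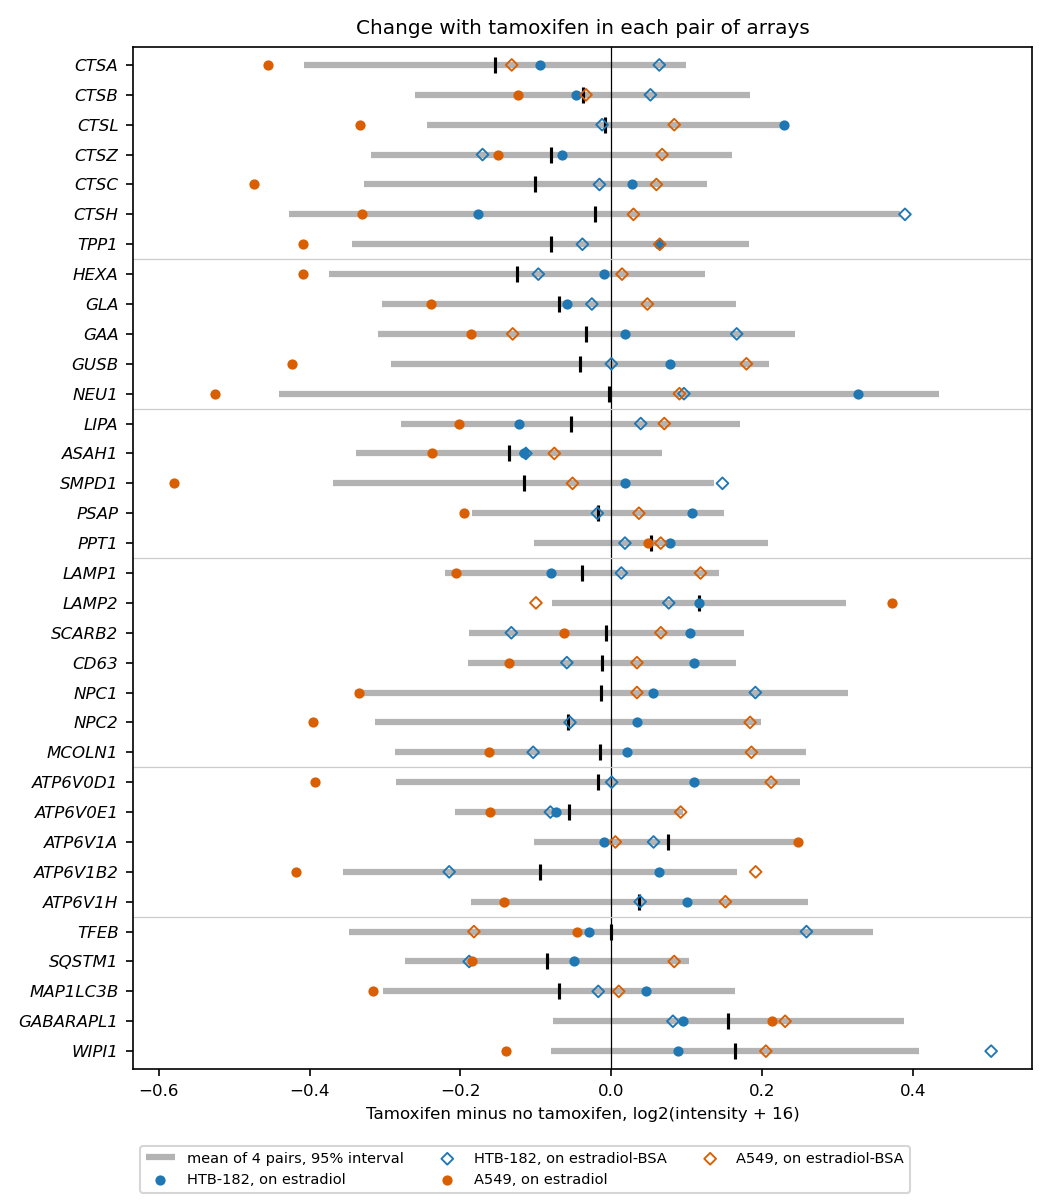
Tamoxifen minus no tamoxifen for each gene (rows, grouped by role) in each of the 4 pairs of arrays, on the log2(intensity + 16) scale. Black ticks are the mean of the 4 pairs and grey bars its 95% interval. All grey bars cross 0, and the filled orange points, A549 on estradiol, lie farthest to the left for most genes.

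Acid sphingomyelinase, encoded by SMPD1, is the enzyme that cationic amphiphilic drugs are best known to displace from lysosomal membranes. SMPD1 read 34.9, 35.1, 35.8, 30.6 and 35.6 in HTB-182 and 51.3, 69.6, 41.3, 48.8 and 46.6 in A549. The estradiol array was the highest of A549 and the estradiol plus tamoxifen array the lowest, whereas in HTB-182 the estradiol-BSA array was low and the other 4 lay together. The mean tamoxifen difference was −0.12 ± 0.11 (SE).

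LIPA, the acid lipase that frees cholesterol from its esters, read 185, 207, 189, 211 and 217 in HTB-182 and 1082, 1081, 938, 924 and 971 in A549. NPC1, which carries that cholesterol out through the lysosomal membrane, read 169, 171, 178, 179 and 207 in HTB-182 and 340, 299, 234, 218 and 223 in A549. In A549 the tamoxifen values of both genes lay among those without it, and in HTB-182 the array with estradiol-BSA and tamoxifen was the highest for both. The mean differences were −0.05 ± 0.10 for LIPA and −0.01 ± 0.15 for NPC1 (SE). The NPC1 value took the opposite sign under quantile normalization and with the mean of its probe sets, staying within 0.01 of 0.

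The membrane glycoproteins LAMP1 and LAMP2 line the lysosome's inner face. LAMP1 read 1690, 2079, 1966, 1945 and 1963 in HTB-182 and 2178, 2170, 1880, 1814 and 1971 in A549, a mean tamoxifen difference of −0.04 ± 0.08 (SE). LAMP2 read 1829, 1742, 1890, 1761 and 1857 in HTB-182 and 797, 772, 1004, 1043 and 972 in A549, a mean difference of 0.12 ± 0.09. In A549 the vehicle and estradiol arrays were low for LAMP2 and the other 3 were high. The sign of the LAMP1 value turned with the mean of its probe sets, to 0.0016. The further LAMP1 probe sets above the filter disagreed, with means of 0.02, −0.28 and 0.31. The last of these was higher with tamoxifen in 4 of 4 pairs.

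TFEB itself read 23.9, 27.8, 26.9, 25 and 33 in HTB-182 and 97.4, 76.5, 73.6, 56.0 and 47.5 in A549. The mean tamoxifen difference was 0.0003 ± 0.16 (SE), and its sign was negative under median centring (−0.02) and with 64 added in place of 16 (−0.0064). WIPI1, which marks the sites where autophagosomes form, read 20.3, 20.6, 22.9, 14.5 and 27.3 in HTB-182 and 85.1, 120, 107, 97.3 and 115 in A549. Its largest pair value, 0.50, came from HTB-182 on estradiol-BSA, where the array without tamoxifen read 14.5, below the filter. The mean WIPI1 difference was 0.16 ± 0.11 (SE), the highest of the 34. Its second probe set above the filter gave −0.02, with −0.35 in the A549 estradiol pair.

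SQSTM1, the receptor p62 that brings cargo to autophagosomes, read 587, 548, 529, 649 and 568 in HTB-182 and 2615, 2807, 2468, 2427 and 2572 in A549. MAP1LC3B, the lipidated LC3B of autophagosome membranes, read 537, 480, 495, 524 and 518 in HTB-182 and 1092, 1059, 847, 813 and 819 in A549. Neither gene separated the arrays with tamoxifen from those without it in either line. The mean differences were −0.08 ± 0.09 for SQSTM1 and −0.07 ± 0.11 for MAP1LC3B (SE).

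By role, the median tamoxifen difference was −0.08 for the 7 proteases, −0.04 for the 5 glycosidases measured and −0.05 for the 5 lipid hydrolases and cofactors. It was −0.01 for the 7 membrane and transport genes, −0.02 for the 5 pump subunits and 0.0003 for TFEB with the autophagy genes. Of the genes not yet given, none had a mean difference beyond ±0.15.

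The next comparison asked whether the response to tamoxifen differed by line. In HTB-182 the median of the 34 genes was 0.02 and in A549 it was −0.09. No gene of the 34 passed the limma test in HTB-182, where 0.0154% of the genes did, or in A549, where 0% did. Both lines share a residual spread in this fit, so the errors of each also carry the scatter of the other. The size of the pair values over all genes had medians, regardless of sign, of 0.08 on estradiol and 0.09 on estradiol-BSA in HTB-182. In A549 these medians were 0.18 on estradiol and 0.09 on estradiol-BSA. The HTB-182 calls were WASF3 and P3H1, which are not among the 34 and are named here after their values were seen. At an unadjusted p under 0.05 the limma fits gave 176 genes in HTB-182 and 421 in A549, again with none of the 34. The test of the difference between the lines also called 0% of genes and none of the 34, with 220 genes at an unadjusted p under 0.05. Both pairs of HTB-182 were higher with tamoxifen for 11 of the 34 genes and lower for 6, against 36.8% and 20.2% of all genes tested. In A549 both were higher for 3 and lower for 6, against 17.6% and 24.2%.

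The lowest differences between the lines, A549 minus HTB-182, belonged to the sialidase NEU1 (−0.43), SMPD1 (−0.40) and CTSA (−0.28), and the highest to GABARAPL1 (0.13), the pump subunit ATP6V1A (0.10) and the carboxypeptidase CTSZ (0.08). NEU1 read 63.5, 62.2, 82.1, 68.4 and 74.3 in HTB-182 and 199, 134, 88.2, 91.4 and 98.4 in A549. On estradiol the pair therefore pointed up in HTB-182 (0.33) and down in A549 (−0.53), while on estradiol-BSA it was 0.10 and 0.09. The 95% interval of the NEU1 difference ran from −0.95 to 0.09.

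CTSA, a carboxypeptidase that also protects NEU1 within a shared complex, read 201, 197, 184, 194 and 203 in HTB-182 and 482, 483, 348, 396 and 360 in A549. The A549 arrays with tamoxifen were the lowest of that line, whereas the HTB-182 arrays with tamoxifen were the lowest and the highest of theirs. ATP6V1A read 1678, 1712, 1700, 1871 and 1946 in HTB-182 and 1394, 1110, 1320, 1282 and 1287 in A549. CTSZ read 640, 579, 553, 654 and 579 in HTB-182 and 772, 740, 665, 561 and 589 in A549. In both of these genes the lines' tamoxifen values differed by less than the 2 pairs of A549 did.

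The pairs of A549 pointed in opposite ways for most of the 34 genes. On estradiol the median of the 34 was −0.20, with 30 genes lower with tamoxifen, against a median of −0.05 and 58% of all genes tested. On estradiol-BSA the median was 0.07, with 27 genes higher, against 0.0044 and 51.4% of all genes. Lower on estradiol and higher on estradiol-BSA were 24 of the 34 genes (70.6%), against 33.7% of all genes tested. In HTB-182 the medians were 0.03 on estradiol and 0.0004 on estradiol-BSA, against 0.03 and 0.02 over all genes. These are single pairs of arrays with no replicate check.

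In the A549 estradiol pair, the proteases had a median of −0.33 with 7 of 7 lower, and the glycosidases −0.41 with 5 of 5 lower. The median was −0.16 for the pump subunits and −0.16 for the membrane and transport genes. The lowest were SMPD1 at −0.58 and NEU1 at −0.53, and the genes above 0 were LAMP2 (0.37), ATP6V1A (0.25), GABARAPL1 (0.21) and PPT1 (0.05). The 5265 genes at least as bright as the lower quartile of the 34 had a median of −0.09 in this pair and 0.03 in the estradiol-BSA pair. The medians of the 34 were −0.25 and 0.10 under median centring, against −0.10 and 0.04 over all genes. Under quantile normalization they were −0.15 and 0.02, against 0.01 and −0.01 over all genes. Among 35 further probe sets of 17 of the 34 genes, the medians were −0.10 and 0.06.

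Array quality differed within some pairs. On estradiol in A549, without and with tamoxifen, the trimmed mean was 114.8 and 108.7, the 3′ to 5′ ratio of the GAPDH control probes 1.45 and 1.61, and that of the ACTB control probes 2.66 and 3.41. On estradiol-BSA in A549 the trimmed means were 105.9 and 108.0, the GAPDH ratios 1.57 and 1.56, and the ACTB ratios 3.53 and 3.57. The widest gap in the ratios was in HTB-182 on estradiol-BSA, 1.52 and 1.74 for GAPDH and 4.38 and 6.13 for ACTB, a pair in which the median of the 34 was 0.0004. The part of RNA quality in the pair values was not tested. The test of a difference in the tamoxifen effect between the estrogens, over both lines, called 0% of genes with limma and none of the 34, with 116 genes and none of the 34 at an unadjusted p under 0.05. The median of the 34 in that test was 0.13, with 30 above 0, against 0.02 and 54.8% of all genes tested.

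A single array decided the A549 call. Without the A549 estradiol-BSA array, where the A549 value rests on the estradiol pair and, through the shared estrogen term, on the array with estradiol-BSA and tamoxifen, limma called 1150 genes (8.86% of those tested, 756 of them lower with tamoxifen) and 9 of the 34 (26.5%). Among these, CTSA (−0.46), HEXA (−0.45), ATP6V0D1 (−0.43), NPC2 (−0.40), CTSC (−0.39), GUSB (−0.39), MAP1LC3B (−0.36) and CTSL (−0.34) were lower with tamoxifen and LAMP2 (0.36) higher. The A549 estradiol array is then the only A549 array without tamoxifen in the fit and is fitted exactly. The calls therefore do not measure how such A549 arrays scatter. Leaving out any other of the 8 estrogen-treated arrays gave 0 of the 34 and between 0 and 12 genes. The difference between the lines had 73 calls without the same array and 0 of the 34.

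**Figure D3:**
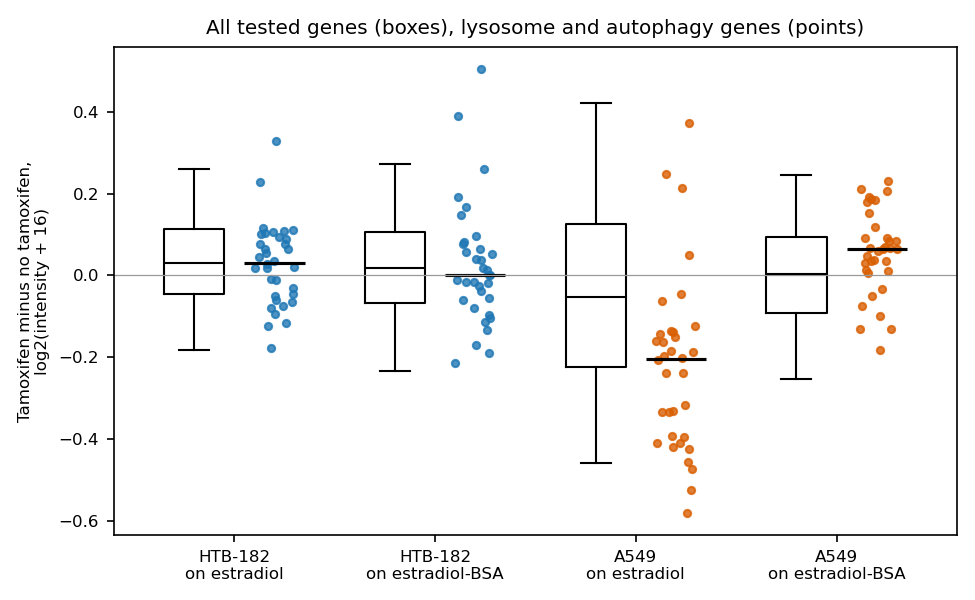
Tamoxifen minus no tamoxifen in each pair of arrays, on the log2(intensity + 16) scale. Boxes show all 12975 genes tested (median, quartiles, whiskers at the 5th and 95th percentiles) and points the 34 lysosome and autophagy genes, with a bar at their median. The points sit below the box median in A549 on estradiol (−0.20 against −0.05) and above it in A549 on estradiol-BSA (0.07 against 0.0044).

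The estrogens were compared without tamoxifen at the same dose and time. Estradiol-BSA minus estradiol called none of the 34 genes in a limma fit that called 0% of genes, with 454 genes and none of the 34 at an unadjusted p under 0.05. The median of the 34 was −0.11, with 28 below 0, against −0.02 and 53.8% of all genes tested. The lines differed here. Against the vehicle array of the line, the medians with estradiol and with estradiol-BSA were 0.0004 and −0.25 in A549, and 0.01 and 0.06 in HTB-182. Over all genes tested they were −0.11 and −0.19 in A549, and −0.02 and 0.05 in HTB-182. This comparison uses the same arrays without tamoxifen as the pairs above, so it is not a separate check of them. LAMP2 had the highest value, 0.22 with an interval from −0.06 to 0.50, and the interval lay within 1.5-fold of no difference for 26 of the 34. The wider intervals of the other 8 do not show that the estrogens act alike on them.

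The last comparison was between the lines, over 5 pairs of arrays given the same treatment. Of the 34 genes, 27 passed the limma test (79.4%), against 65.7% of all genes tested. Higher in A549 were 22 genes, against 33.6% of all genes, and lower were 5, against 32% of all genes. The median difference of the 34 was 0.73, or 0.37 with the mean of each gene's probe sets, against 0.03 over all genes. That mean takes in probe sets below the filter. At least 2-fold higher in A549 were 13 genes, against 13.2% of all genes, and 1 was at least 2-fold lower, against 11.1%. Each line comes from a single tumour, so line, donor and histological type cannot be told apart, and in bulk RNA the makeup of a culture cannot be told apart from the RNA per cell.

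CTSL, the endopeptidase cathepsin L, had the largest difference of the 34. It read 215, 255, 302, 317 and 315 in HTB-182 and 4193, 5412, 4292, 4481 and 4749 in A549, so the lines did not overlap. The means were 281 ± 44.4 and 4625 ± 488 (SD, n = 5 arrays), and the difference of 3.97 ± 0.10 (SE), 15.7-fold, had a limma adjusted p of 3.5e-11. It ranked at place 245 by size among the 12975 genes.

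CTSB, cathepsin B, read 394, 411, 398, 395 and 410 in HTB-182 and 2681, 2150, 1972, 1922 and 1877 in A549, a difference of 2.34 ± 0.09 (SE). CTSH, an aminopeptidase, read 25.4, 27.6, 22.6, 24.6 and 37.2 in HTB-182, near the filter, and 314, 222, 173, 149 and 153 in A549, a difference of 2.28 ± 0.16. In A549 the vehicle array was the highest for both genes, and without it the CTSH difference was 2.11. TPP1, a tripeptidyl peptidase, and CTSA were higher in A549 by 1.29 and 1.01. The values of CTSC (−0.15) and CTSZ (0.13) did not pass the test, and the CTSC value became 0.24 with the mean of its probe sets (limma adjusted p = 0.0141).

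Among the glycosidases, GLA, the alpha-galactosidase, averaged 407 ± 16.4 in HTB-182 and 1700 ± 242 in A549 (SD, n = 5 arrays), a difference of 2.01. HEXA, a subunit of beta-hexosaminidase, was higher in A549 by 1.15 and NEU1 by 0.63. The NEU1 difference was 0.43 without the A549 vehicle array, the highest of its line at 199. GAA (0.18), the acid alpha-glucosidase, and GUSB (−0.05), the beta-glucuronidase, did not pass the test, and their arrays overlapped between the lines.

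The lipid hydrolases went both ways. LIPA averaged 202 ± 14.0 in HTB-182 and 999 ± 77.2 in A549 (SD, n = 5 arrays), a difference of 2.22 ± 0.09 (SE). PSAP, the precursor of the saposins that help break down sphingolipids, was higher in A549 by 1.10, ASAH1 by 0.99 and SMPD1 by 0.41. PPT1 was the exception, with means of 5743 ± 119 and 1203 ± 131, a difference of −2.25 ± 0.06 (SE), 4.75-fold higher in HTB-182 at a limma adjusted p of 1.0e-10. It had 1 probe set, and the lines did not overlap.

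Of the membrane and transport genes, CD63, a tetraspanin, was higher in A549 by 1.17, the cholesterol carrier NPC2 by 0.91 and NPC1 by 0.49. LAMP2 was lower in A549 by −0.98 ± 0.08 (SE), with means of 1816 and 918 and no overlap. Its further probe sets averaged 812 against 699, 388 against 361 and 116 against 203, so the dimmest pointed the other way (0.71), and with the mean of its probe sets LAMP2 no longer passed (−0.15, limma adjusted p = 0.0572). MCOLN1, a calcium channel of the lysosomal membrane, read 63.2, 69.9, 71.2, 79.7 and 73.1 in HTB-182 and 45.2, 39.1, 33.2, 29.8 and 36.1 in A549, a difference of −0.73 ± 0.11. LAMP1 (0.05) and SCARB2 (−0.12) did not pass, and the LAMP1 value was −0.19 with the mean of its probe sets (limma adjusted p = 0.0486).

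The subunits of the proton pump, the V-ATPase that acidifies the lysosome, went both ways. The membrane sector subunits ATP6V0E1 (0.56) and ATP6V0D1 (0.34) were higher in A549. In the sector that burns ATP, ATP6V1A was lower by −0.47 ± 0.07 (SE), and ATP6V1H, a regulatory subunit, read 741, 683, 734, 736 and 756 in HTB-182 and 548, 482, 435, 399 and 445 in A549, a difference of −0.65 ± 0.09. ATP6V1B2 (−0.04) did not pass. ATP6V0D1 overlapped between the lines, and it missed the threshold without either estradiol array (0.23, limma adjusted p = 0.0675 and 0.0697).

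All 5 genes of the autophagy group were higher in A549. SQSTM1 averaged 576 ± 46.4 and 2578 ± 149 (SD, n = 5 arrays), a difference of 2.13 ± 0.08 (SE). GABARAPL1 differed by 2.32 ± 0.09 (SE), WIPI1 by 1.70 ± 0.10, TFEB by 0.97 ± 0.14 and MAP1LC3B by 0.83 ± 0.09, each at a limma adjusted p of 9.2e-05 or less. In HTB-182 GABARAPL1, WIPI1 and TFEB averaged 23.5, 21.1 and 27.3, close to the filter, so the differences of these genes are damped by the added 16. The second TFEB probe set averaged 30.5 in HTB-182 and 37.6 in A549, a difference of 0.20 in place of 0.97. The second MAP1LC3B probe set averaged 346 in HTB-182 and 342 in A549, and a dim SQSTM1 probe set gave −0.11. Those of GABARAPL1 and WIPI1 gave 1.32 and 1.39.

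The 5 arrays of a line did not overlap with those of the other for 26 of the 34 genes, 21 higher in A549, against 30.3% of all genes, and 5 lower, against 28.2%. The further probe sets of genes that passed numbered 26, and 21 of them gave the same direction.

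**Figure D4:**
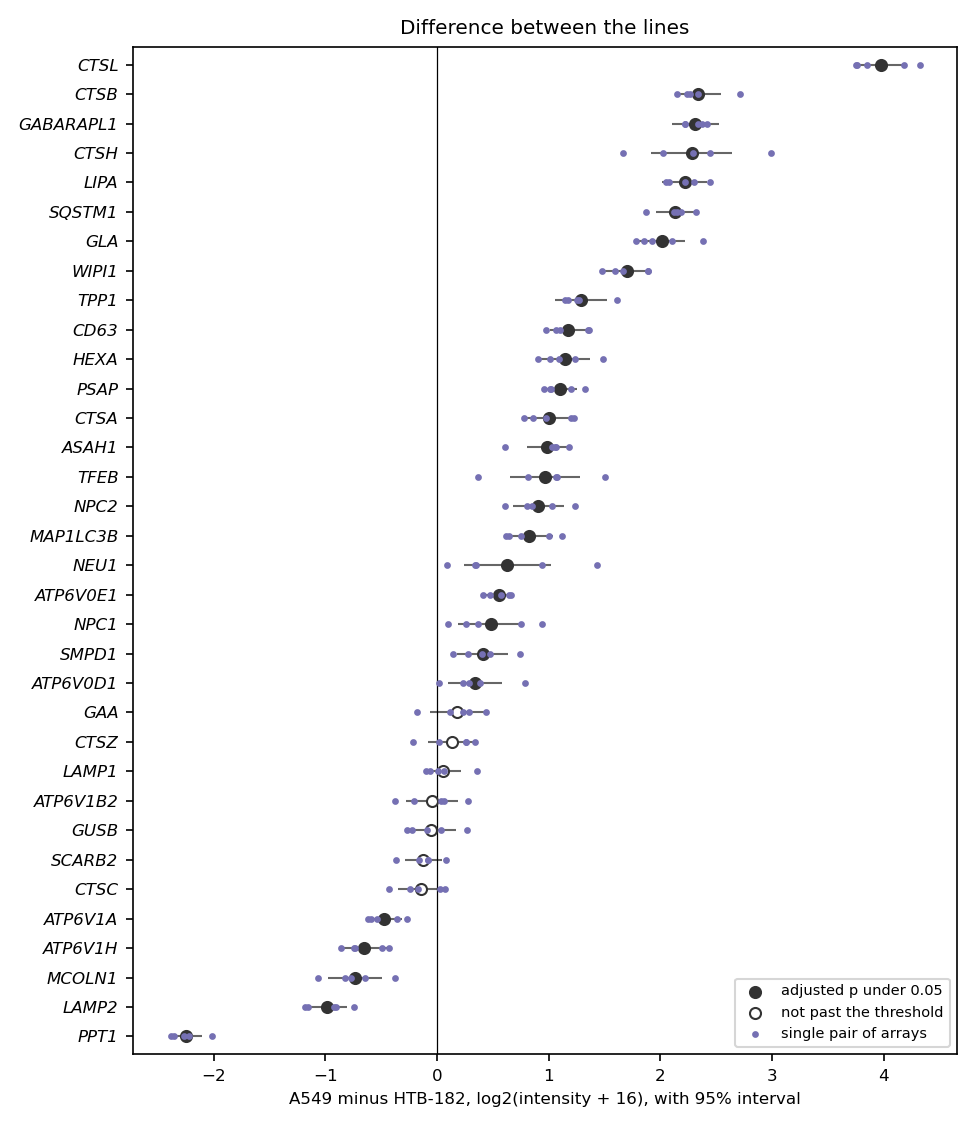
A549 minus HTB-182 for each gene on the log2(intensity + 16) scale, in order of size. Large circles are the mean of 5 pairs of arrays with its 95% interval, filled where the limma adjusted p was under 0.05, and small purple points are the single pairs. CTSL (3.97) and PPT1 (−2.25) lie at the ends, and 7 open circles lie near 0.

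The rest of the pathway was described with 150 further genes in 5 lists, of which 131 were tested. Tamoxifen called none of them with limma, and the median was 0.0007. Higher in 4 of 4 pairs were 14 (against 7.36% of all genes tested) and lower in 4 of 4 were 5 (against 5.13%). FLCN, part of the complex that lets mTORC1 hold TFEB in the cytoplasm, was 0.22, 0.26, 0.27 and 0.15 in the 4 pairs, with a mean of 0.23 ± 0.11 (SE). Its partner FNIP1 had a mean of 0.15 and LAMTOR2, an anchor of mTORC1 on the lysosome, −0.17.

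Other genes with the same sign in 4 of 4 pairs were GNPTAB, which makes the mannose 6-phosphate tag of lysosomal enzymes (0.25), the autophagy genes TP53INP1 (0.18) and ATG4C (0.18), the mannosidase MANBA (0.11), SIAE (0.10), LAPTM4A (0.05), ATG16L1 (−0.29), ATG7 (−0.18) and SIDT2 (−0.15). None passed the test.

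Between the lines, 67 of the 131 genes were higher in A549, 29 were lower and 35 did not pass. Over all genes tested, 33.6% were higher and 32% lower, shares to be read beside each list that follows. Of 23 further hydrolases and cofactors, 18 were higher, led by the protease CTSS (2.72) and the sulfatase IDS (2.47), and MANBA alone was lower (−0.25). Of 26 membrane proteins and transporters, 12 were higher, led by HGSNAT (2.39) and the amino acid sensor SLC38A9 (2.36), and 5 were lower, led by the mannose 6-phosphate receptor IGF2R (−0.72) and the ion channel TMEM175 (−0.71). Of 14 further pump subunits, 7 were higher, led by TCIRG1 (3.57) and ATP6AP2 (1.39), and 5 lower, led by ATP6V0B (−2.56) and ATP6V0A2 (−1.48).

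Of 45 further autophagy genes, 22 were higher in A549, against 33.6% of all genes tested, led by TP53INP1 (2.64) and the receptor OPTN (2.02). Lower were 12, against 32% of all genes and near that share, led by ATG4D (−1.36) and VAMP8 (−1.21). Of 23 relatives of TFEB and genes of the mTORC1 switch on the lysosome, 8 were higher and 6 lower, near the shares over all genes. The TFEB relatives MITF (2.49) and TFE3 (1.91) led the higher group, and the GTPases RRAGD (−1.24) and RRAGC (−1.23) the lower.

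The promoter motifs were set beside the measured differences. The 5 genes with TCACGTGA shown above, ATP6V0D1, CTSA, GAA, LAMP1 and MCOLN1, had a median tamoxifen difference of −0.03, with values from −0.15 to −0.01. The 20 measured genes with a window and without that motif also had a median of −0.03, with 4 above 0. The median difference between the lines was 0.18 for the former and 0.94 for the latter. These medians are descriptions of small groups and were not tested.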

How the data were processed

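Total RNA of 10 samples was hybridised to 1 Affymetrix array each. The deposited values are intensities on a linear scale, made by the authors with MAS5 per the submitters' processing notes. The MAS5 version and target level were not given in the sources used here. Precision is limited by the number of arrays. Of 54675 probe sets, 62 are controls. Per the platform annotation, 41091 name 1 gene, 1801 several and 11721 none, and only those with 1 gene were used. Of these 41037 matched RefSeq, and 0 symbols changed.

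Values were taken as log2(intensity + 16). A gene was its probe set with the highest mean, kept at or above the median of all probe sets. The fits used limma 3.58.1 in R 4.3.3, with lmFit, eBayes (intensity trend on) and p-values adjusted by Benjamini-Hochberg over 12975 genes at 0.05. Effects over both lines and the line difference came from an additive fit of line and treatment over 10 arrays. Effects by line came from the 8 estrogen-treated arrays, with line, estrogen form, tamoxifen and line by tamoxifen. Tested on simulated data with 12975 genes, the fits recovered 89% of genes changed by 1 log2 unit for tamoxifen over both lines, 47% in HTB-182, 50% in A549, 13% for the difference between the lines and 91% for line. Tables and figures were made with pandas 2.3.3 and matplotlib 3.10.9.

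Genes shown on every array were those with the same sign in 4 of 4 tamoxifen pairs, the 5 with the largest line difference in each direction, the 3 with the largest difference in tamoxifen effect between the lines in each direction, and TFEB, SQSTM1, MAP1LC3B, GABARAPL1, WIPI1, LAMP1, LAMP2, NPC1, LIPA, ASAH1 and SMPD1. From each list of further pathway genes up to 2 in each direction were named, the largest that passed or, where none passed, the largest with the same sign in every pair. The genes and lists were chosen with earlier results of these data known. Alternatives were the added constant (1 or 64), median centring, quantile normalization, the filter, the mean of probe sets, array weights, no intensity trend, other sets of arrays in the fit, and leaving out each array.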

Additional observations from a re-analysis of the deposited data

Results flagged for a closer look

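Each of the 34 genes was checked in each line for an array far from the other 4 of that line, by the gap to its neighbour relative to the whole range. Of 68 such checks, 2 passed the limit, where chance gives about 1 in 20, or 3.4. GUSB, the beta-glucuronidase, read 419 in HTB-182 with estradiol and tamoxifen, against 395 to 401 on the other 4 arrays of the line. SMPD1, the acid sphingomyelinase, read 30.6 in HTB-182 with estradiol-BSA, against 34.9 to 35.8 on the other 4. The SMPD1 array is the one without tamoxifen in its pair, which puts that pair at 0.15.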

How the results depend on the processing

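The labels carry no replicate numbers, so no block by replicate could be added to line and treatment, the terms that already pair the arrays in the fits. None of the 34 genes passed in the tamoxifen comparison over both lines under any alternative tried, and the 12 genes of it that were recomputed had limma adjusted p-values from 0.99428 to 0.99999. In HTB-182, 2 genes passed as reported, 1 with a constant of 1, with quantile normalization, without the filter and with the filter at the 75th percentile, 12 with array weights and 0 with all 10 arrays in the fit. A constant of 64 gave 3 genes in A549 and 1 for the difference between the lines. Array weights gave 1 gene for estradiol-BSA against estradiol. The cause of these moves was not tested.

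The median line difference of the 34 was 0.37 with the mean of probe sets, in place of 0.73, which also gave SMPD1 0.11, NPC1 0.12 and LAMP2 −0.15, past the threshold no longer, and CTSC 0.24 and LAMP1 −0.19 with the opposite sign. The mean of probe sets takes in those below the filter, and their part in these moves was not tested. With array weights LAMP1 was −0.019. In the tamoxifen comparison the sign turned for TFEB with a constant of 64 (−0.0064) and median centring (−0.021), for LAMP1 with the mean of probe sets (0.0016), and for NPC1 with quantile normalization (0.0011) and the mean of probe sets (0.0073).

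Leaving out each array in turn gave 0 to 4 genes in HTB-182, 0 to 1150 in A549 with 0 to 9 of the 34, 0 to 73 for the difference between the lines and 0 to 1 for estradiol-BSA against estradiol. The line comparison gave 7808 to 8753 genes, 26 to 27 of the 34 and a median from 0.65 to 0.81, and the tamoxifen median ran from −0.10 to 0.03. Tamoxifen values ran from −0.19 to 0.19 for TFEB, −0.16 to 0.021 for MAP1LC3B, −0.086 to 0.0092 for LAMP1 and −0.13 to 0.11 for NPC1, and line values from −0.024 to 0.092 for LAMP1 and −0.12 to 0.042 for ATP6V1B2. When a group loses its array, the line's value rests on the arrays that remain. In the fits by line, an array left alone on its side of the tamoxifen comparison is fitted exactly, and the counts do not measure its scatter. Signal near background limits GABARAPL1, WIPI1, TFEB and CTSH in HTB-182, and single arrays limit each pair value.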

Other observations

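Against the vehicle array of the same line, the medians of the 34 genes in HTB-182 were 0.01 with estradiol and 0.03 with estradiol and tamoxifen. They were 0.06 with estradiol-BSA and 0.06 with estradiol-BSA and tamoxifen. Over all genes tested, the medians in the same order were −0.02, 0.01, 0.05 and 0.07. In A549 the medians of the 34 were 0.0004, −0.21, −0.25 and −0.17 in that order, against −0.11, −0.14, −0.19 and −0.19 over all genes tested. These 4 values of a line share its vehicle array, which in A549 is the array that stood apart, and they come from single arrays with no test.

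The 95% interval of a gene in the tamoxifen comparison reached 1.18-fold to either side in the median of the 34 genes and 1.19-fold over all genes tested.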
